A study of Mus musculus with 26 samples.

Results

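The regions described here are ATAC-seq peaks of the D1 SS list that share at least 1 bp with a peak in each of the D2 SS, D2 SC and D2 CC lists and with no peak in D2 CS, D1 SC, D1 CS or D1 CC, on chromosomes 1 to 19 and X. They were chosen by the presence and absence of called peaks in the 8 lists, so presence and absence are a description here and were not tested. Of 28568 D1 SS peaks, 393 (1.38%) met this rule, and merging all 8 lists gave 94449 regions. ATAC-seq uses a transposase to insert sequencing adapters into accessible DNA, and a peak is a stretch where insertions exceed the local background. The samples are mouse medium spiny neurons (MSNs), which the labels give as D1 or D2, in the states SS (baseline), SC (acute cocaine), CS (chronic cocaine with a long withdrawal) and CC (cocaine relapse). The tissue label is brain, and the series title names the nucleus accumbens. Strain, sex, age, dose, the way the cells were isolated and whether animals were pooled are not given in the sources used here.

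The 4 lists that hold these regions come from the groups with few libraries: 2 for D1 SS, 2 for D2 SS, 1 for D2 SC and 1 for D2 CC. The 4 lists that lack them come from 4 libraries each for D1 SC, D1 CS and D1 CC and 8 for D2 CS. The labels name no batch. Peaks outside the main chromosomes, on patches of the assembly, numbered 4 to 7 in each list that holds the regions and 70 to 137 in each that lacks them. Of the 4 lists that hold the regions 3 are D2, and of the 4 that lack them 3 are D1. Lists of SC and CC stand on both sides, while SS lists only hold the regions and CS lists only lack them. In the sample order of the series, all libraries of the 4 lists that hold the regions come before those of the other lists. Number of libraries, count of patch peaks, a batch that the labels may not name, and the combination of cell type and cocaine state cannot be told apart. With a single peak list for every group, replicate error is unknown and no p-value between groups was computed. Intervals are exact 95% binomial (Clopper-Pearson) intervals, or order-statistic intervals for medians, and cover counting error only.

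MSNs of the D1 type carry the dopamine receptor Drd1 and project mainly to the output nuclei of the basal ganglia, while D2 MSNs carry Drd2 and project mainly to the pallidum. Active promoters, many of them in CpG-rich DNA, are open in most cell types, whereas open sites far from promoters, often enhancers, differ more between cell types. A peak caller reports a site where its read pileup passes a threshold over background, so a weak site enters or leaves a list with depth more easily than a strong one.

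No region of the set touched a promoter window of RefSeq, taken as 250 bases before to 50 after a transcription start site (TSS). This count covers the 376 regions on chromosomes for which windows were used, against 7452 of 27338 D1 SS peaks there (27.3%). The genome sequence of the regions themselves was not used here. To show what lies next to them, the upstream 250 bases are given for the 3 protein-coding promoter windows nearest to a region of the set, and for 1 with the opposite pattern (a peak only in the 4 lists that lack the regions). This is the window of Zfp97, a zinc finger gene, whose peak had the highest D1 CC fold of those that touch a protein-coding window. All are from RefSeq on GRCm38.p6, the build called mm10, plus strand, with each CG dinucleotide in capitals.
C9, chr15:6445096-6445345: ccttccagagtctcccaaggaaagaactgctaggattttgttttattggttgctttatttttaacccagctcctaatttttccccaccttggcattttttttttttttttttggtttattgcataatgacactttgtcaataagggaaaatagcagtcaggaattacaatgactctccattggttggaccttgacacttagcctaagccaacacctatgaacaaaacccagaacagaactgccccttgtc
Etv1, chr12:38783461-38783710: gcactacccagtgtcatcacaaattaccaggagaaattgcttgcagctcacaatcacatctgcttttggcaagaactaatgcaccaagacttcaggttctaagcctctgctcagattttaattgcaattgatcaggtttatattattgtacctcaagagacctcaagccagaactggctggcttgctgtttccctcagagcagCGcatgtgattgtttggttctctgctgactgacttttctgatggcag
Retreg1, chr15:25843048-25843297: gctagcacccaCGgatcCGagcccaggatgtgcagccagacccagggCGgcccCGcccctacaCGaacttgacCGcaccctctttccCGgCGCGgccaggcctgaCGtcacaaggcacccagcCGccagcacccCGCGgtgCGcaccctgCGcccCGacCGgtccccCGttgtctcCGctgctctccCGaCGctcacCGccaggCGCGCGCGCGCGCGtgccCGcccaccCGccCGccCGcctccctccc
Zfp97, chr17:17121133-17121382: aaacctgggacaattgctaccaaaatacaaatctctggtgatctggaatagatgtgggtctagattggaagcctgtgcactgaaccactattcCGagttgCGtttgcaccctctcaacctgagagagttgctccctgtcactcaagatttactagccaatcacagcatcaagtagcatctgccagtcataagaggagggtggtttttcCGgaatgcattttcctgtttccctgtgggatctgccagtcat

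The window of C9, a complement component of the blood, lay 841 bp from a region of the set and held no CG among its 250 bases. That of Etv1, an ETS transcription factor, lay 1512 bp away and held 1 CG. Neither window carried a peak in any of the 8 lists. The window of Retreg1, a gene of endoplasmic reticulum turnover, lay 1857 bp away, held 33 CG and carried a peak in all 8 lists. The Zfp97 window held 3 CG and carried a peak only in the 4 lists that lack the regions, with a fold of 15.3 in D1 CC. Within 3 kb of a region of the set lay 13 RefSeq windows, with a median of 46.3% G and C and 5 CG, and 6 of them carried another D1 SS peak. Over all 32619 windows the medians were 53% and 7 CG, and over the windows with any D1 SS peak 63% and 24 CG.

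Each condition of the rule taken alone removed a different share of the D1 SS peaks. Of all 28568, 1.88% had no peak in D2 SS, 2.55% none in D2 SC and 1.3% none in D2 CC, while 29.3% had none in D1 SC, 13.1% none in D1 CS, 2.53% none in D1 CC and 33% none in D2 CS. Presence in the D2 lists removed little, since 96.4% of the D1 SS peaks had a peak in D2 SS, D2 SC and D2 CC. Among these 27544 peaks, 17382 (63.1%) were in all 4 of the remaining lists, 3838 in 3, 3607 in 2, 2324 in 1 and 393 (1.43%) in none. Absence from D1 CC, the longest list with 77070 peaks, set the size of the group: 1.61% of the 27544 lacked a D1 CC peak, against 27.2% without a D1 SC peak, 11.4% without a D1 CS peak and 30.9% without a D2 CS peak. Of the peaks just outside the rule, 2278 were missing from D1 SC, D1 CS and D2 CS but present in D1 CC. Another 39 were present in D1 CS alone of the 4 lists, 4 in D1 SC alone and 3 in D2 CS alone.

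On the other edge of the rule, 96 D1 SS peaks were in none of those 4 lists and in 2 of the 3 D2 lists, 67 were in 1 and 93 in none. Of the 96, 49 lacked D2 SC, 37 lacked D2 SS and 10 lacked D2 CC. Seen from the D2 side, 4465 D2 SS peaks were also in D2 SC and D2 CC and in none of the 4 lists that lack the regions. A D1 SS peak was present at 356 of these (7.97%), against 54.7% of all D2 SS peaks shared with D2 SC and D2 CC. The 4109 without a D1 SS peak were intergenic in 52.8% of cases, in gene bodies in 38.1% and at promoters in 3.68%. Their median D2 SS fold stood at percentile 34.8 of the D2 SS list, and that of the 356 at 50.2.

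Background pileup, read here as a sign of depth, differed between the lists but did not split them as the rule does. Read totals were not used here, but the smallest step between the frequent fold values, read with the fold of the peak caller MACS2 as pileup plus 1 over background plus 1, gave background pileups of 4.12 reads for D1 SS, 6.14 for D2 SS, 4.48 for D2 SC and 5.85 for D2 CC. In the lists that lack the regions it was 1.15 in D1 SC, 3.50 in D1 CS, 4.23 in D1 CC and 2.22 in D2 CS. That formula is assumed from the default of the tool and is not stated in the labels; without the added 1 each value would be higher by 1 and the order the same. D1 SC, D1 CS and D2 CS lay below all 4 lists that hold the regions, while D1 CC lay between D1 SS and D2 SC. The part of depth in the absence of these regions was not tested.

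The regions were intergenic or within gene bodies, by the authors' classes, and almost never at promoters. Intergenic peaks numbered 226 of 393 (57.5%, 52.5 to 62.5%), gene body peaks 140 (35.6%, 30.9 to 40.6%), peaks 1 to 3 kb from a TSS 17 (4.33%), and peaks within 1 kb of a TSS 10 (2.54%, 1.23 to 4.63%). Only 1 lay within 250 bp of a TSS, of 9299 such D1 SS peaks. Among all D1 SS peaks, 38.5% were within 1 kb of a TSS, 29.1% in gene bodies and 27.4% intergenic. Read the other way, 2.88% (2.52 to 3.28%) of intergenic D1 SS peaks, 1.69% (1.42 to 1.99%) of gene body peaks and 0.0909% (0.0436 to 0.167%) of promoter peaks belonged to the set.

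**Figure D1:**
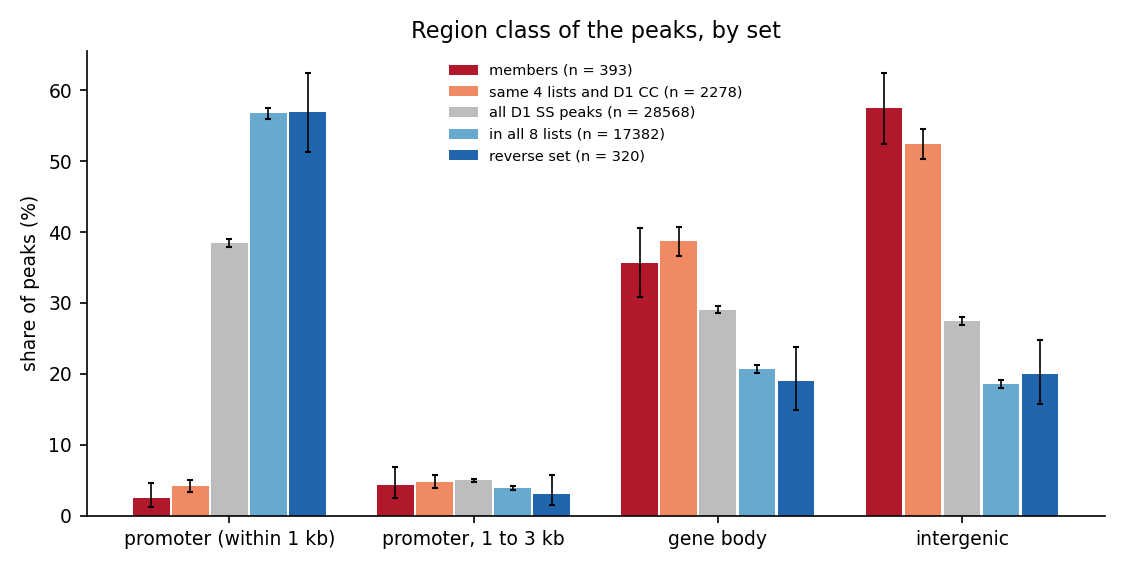
Bars give the share of peaks (%) in 4 classes of distance to a gene for 5 sets of peaks, and error bars give exact 95% binomial intervals. The 393 regions (members) and the 2278 peaks that D1 CC holds as well lie close together, with 57.5% and 52.4% intergenic, while the opposite pattern (reverse set, 320 peaks) has 56.9% at promoters.

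The class shares were much like those of the 2278 peaks that D1 CC holds in addition. There, 52.4% (50.3 to 54.5%) were intergenic, 38.7% (36.7 to 40.7%) in gene bodies and 4.13% (3.35 to 5.03%) at promoters, and all 3 intervals overlap those of the set. The opposite pattern, D1 CC peaks also in D1 SC, D1 CS and D2 CS and in none of the 4 lists with few libraries, comprised 320 of 77070 D1 CC peaks (0.415%). Of these 320, 56.9% (51.2 to 62.4%) were promoter peaks and 20% were intergenic. The D1 SS peaks found in all 8 lists were promoter peaks in 56.7% of cases. No test was run between these sets, because the rule and the sets were drawn from the same lists.

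The regions lay far from annotated TSSs. Their median distance to the nearest RefSeq TSS was 123 kb (96.4 to 147 kb, 376 regions), against 18.8 kb for all D1 SS peaks, 92.6 kb (83.6 to 101 kb) for the 2278 peaks that D1 CC shares and 8.84 kb for the opposite pattern. A median of 2 protein-coding genes had their midpoint within 500 kb, against 7 for all D1 SS peaks, 3 for the 2278 and 14 for the opposite pattern. For 95 of the 393 (24.2%) no such midpoint lay that close, against 5.14% of all D1 SS peaks; a long gene can still cover or border such a region, as Ptprd does. For the 140 gene body regions, the gene had a median length of 193 kb (133 to 256 kb) and the peak lay 74.3 kb from its start, against 119 kb and 45.3 kb for all gene body peaks of D1 SS. For the 167 regions with an authors' distance, the median distance to the annotated TSS was 45924 bp (32080 to 70116 bp).

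In the D1 SS list the regions were narrow and low in rank, and in the D2 lists they were near the middle. Other D1 SS peaks also ranked higher and were wider in those D2 lists, as given below. Fold is the authors' enrichment of a peak over background and is not scaled between lists, so it is given as a percentile within each list. The median fold was 3.72 in D1 SS, at percentile 21.3 of that list (19.9 to 27.3), with quartiles at 13.2 and 41.6. The same regions stood at a median percentile of 52.1 (48.9 to 55.1) for D2 SS, 48.9 (44.7 to 52.8) for D2 SC and 59.1 (56.2 to 61.7) for D2 CC. Of the 393, 47 were above the D1 SS median, and 213, 193 and 250 were above the medians of D2 SS, D2 SC and D2 CC. D1 SS gave the lowest of the 4 percentiles for 293 regions. The D1 SS median moved to percentile 41.6 with a q of at most 1e-05 in the 4 lists that hold the peak, and also with lists of equal length. No region was above percentile 90 in all 4 lists, and 17 were above it in at least 1.

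Width followed the same order. The median width was 263 bp (250 to 274 bp) in D1 SS, against 504 bp for all D1 SS peaks, and 53 regions (13.5%) had the smallest width in any list, 200 bp, against 3.68% of all D1 SS peaks. In D2 SS, D2 SC and D2 CC the peaks that hold the regions were 538, 531 and 569 bp wide at the median, close to the list medians of 555, 547 and 563 bp. For 323 of the 393 the D1 SS peak was the narrowest of the 4, and 177 lay wholly inside the peak of all 3 D2 lists. The overlap with a D2 peak went down to 4 bp in D2 SS, 5 bp in D2 SC and 87 bp in D2 CC. The D1 SS median width was 399 bp with a reciprocal overlap of 50% and 421.5 bp with lists of equal length. In 5 regions the peak stayed under 300 bp in all 4 lists, and 3 of these were intergenic.

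**Figure D2:**
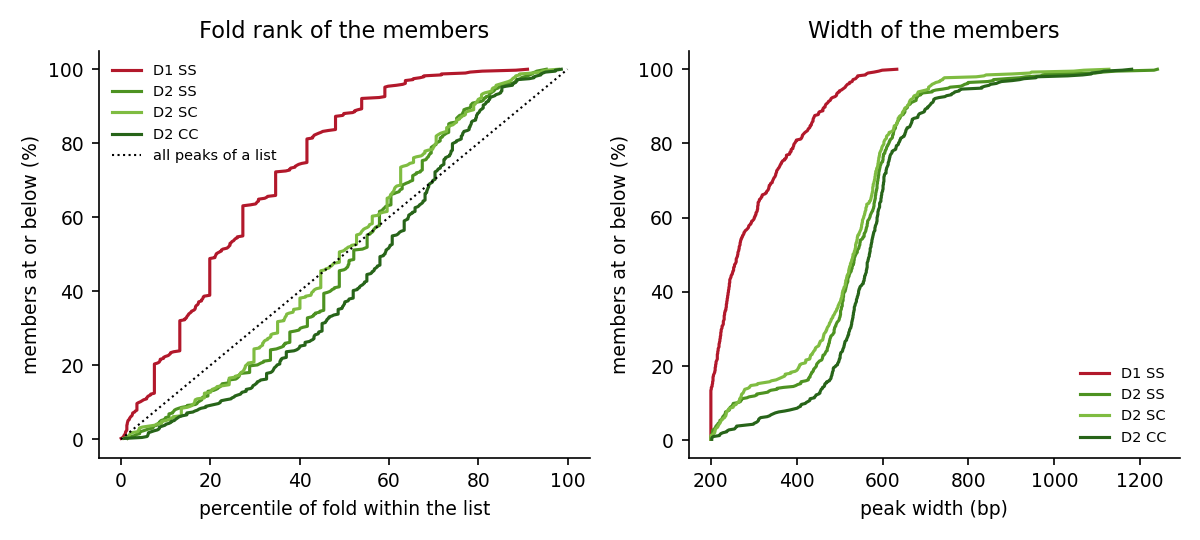
Cumulative share of the 393 regions (members, %) against the percentile of their fold within each list (left) and their peak width in bp (right), in the 4 lists that hold them. The D1 SS curve lies above the dotted diagonal of all peaks, with a median at percentile 21.3, and the D2 curves run close to it. On the right, the D1 SS peaks reach 633 bp at most, while the D2 medians lie at 538, 531 and 569 bp.

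The 2278 peaks that D1 CC shares had a D1 SS median at percentile 27.3, a width of 321 bp (306 to 334 bp) in D1 SS, and medians at percentiles 63.0, 62.6 and 67.5 in D2 SS, D2 SC and D2 CC. In the D2 lists their intervals, which cover counting error only, lie above those of the set. The rule itself split these sets by presence in D1 CC, so the difference is a description and was not tested. The D1 CC peaks that hold the 2278 stood at a median percentile of 51.6 in D1 CC (quartiles 34.5 and 67.7), so D1 CC holds most of the 2278 as peaks of middle rank. Peaks in all 8 lists stood at percentile 64.9 in D1 SS and at 80.7 to 82.3 in these D2 lists, well above the set. Their median width was 578 bp in D1 SS and 722 to 793 bp in the same D2 lists, where the 2278 measured 577 to 604 bp. So a higher rank and a greater width in D2 SS, D2 SC and D2 CC were not particular to the set. These D2 lists are also longer, with 58790 to 68424 peaks against 28568 in D1 SS. The opposite pattern stood at percentile 77.7 of D1 CC with a median width of 766 bp.

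The nearest peak of any of the 4 lists that lack the regions lay at a median of 12.8 kb, and within 10 kb for 176 of the 393. By list, the median distance to the nearest peak was 13.0 kb in D1 CC, 33.0 kb in D1 CS, 63.7 kb in D1 SC and 64.7 kb in D2 CS. Distances for other positions in the genome were not computed. A peak of at least 1 of the 4 lists lay within 100 bp of 32 regions and within 1 kb of 70, and for 66 of the 70 that held for D1 CC. The nearest lay 11 bp away, a D1 CS peak beside the region at chr9:40344008-40344251, at -1191 bp from the TSS of AC132474.2 and within Gramd1b. The farthest was at chr5:56742066-56742318, intergenic and 974 kb from Pcdh7, with 475 kb to the nearest peak of the 4 lists. Because D2 peaks are wider, the D2 peaks of 56 regions themselves touched a peak of the 4 lists, which leaves 337 regions where neither the D1 SS nor any D2 peak did. Of the 337, 58.5% were intergenic and 34.7% in gene bodies.

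**Figure D3:**
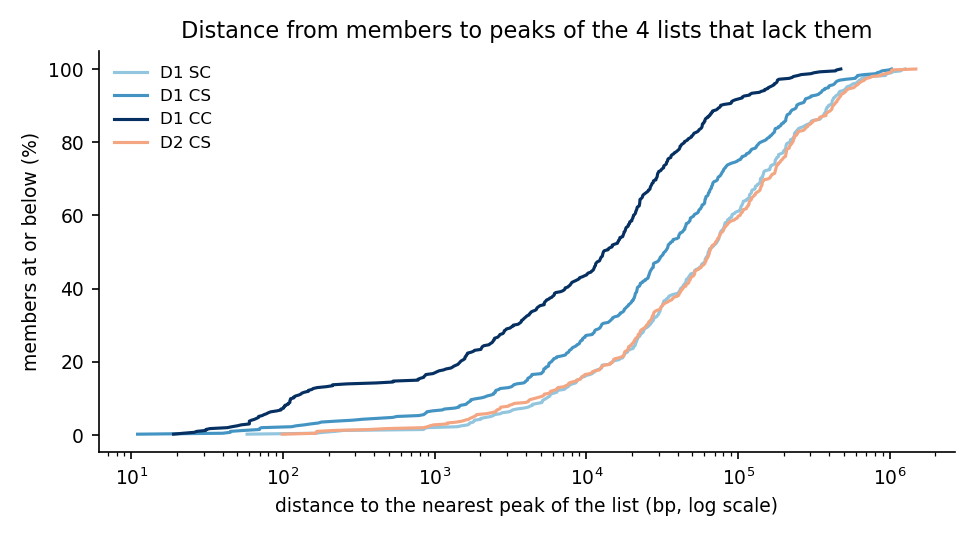
Cumulative share of the 393 regions (members, %) against the distance in bp, on a log axis, to the nearest peak of each list that lacks them. The D1 CC curve lies to the left of the others, with 66 regions within 1 kb and a median of 13.0 kb, and D1 SC and D2 CS run together with medians of 63.7 and 64.7 kb.

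The strongest regions in D1 SS were intergenic in 22 of 25 cases, when ranked by fold. The first lay at chr14:88391130-88391689, 73.0 kb from Pcdh20, a protocadherin gene of cell adhesion. Its fold was 7.03 in D1 SS and 8.06, 7.76 and 7.24 in D2 SS, D2 SC and D2 CC, at percentiles 91.0, 93.1, 87.5 and 88.4. It was high in all 4 lists, and the nearest peak of the lists that lack it, in D1 CC, was 5453 bp away. The second, at chr1:31129679-31129904 and 46.4 kb from Lgsn, had folds of 6.73, 5.88, 5.84 and 5.40 in the same order of lists. Unlike most of the set it was narrow in every list, at 226, 226, 218 and 223 bp.

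The third region, at chr1:116751673-116751951 and 164 kb from the contactin-associated gene Cntnap5a, had folds of 6.05, 7.56, 7.38 and 9.63. It shows how near the edge some strong regions are, since a D1 CS peak lay 70 bp away and a D1 CC peak 101 bp away, and at least 1 of its D2 peaks, 661 to 673 bp wide, touched a peak of the 4 lists. The regions near Cdh20, Man1a and Col8a1 among the 25 had a peak of the 4 lists within 158, 31 and 69 bp. A region at chr13:86010871-86011432, 33.4 kb from Cox7c, a subunit gene of cytochrome c oxidase, had folds of 5.47, 7.47, 8.51 and 6.64, and the nearest peak of the 4 lists lay 34.9 kb away. Another, at chr5:61413856-61414435 and 394 kb from G6pd2, had folds of 5.15, 6.44, 7.66 and 8.17, and the nearest such peak lay 173 kb away. In both, all 3 D2 values exceeded percentile 80 of their lists.

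The 3 gene body regions among the 25 lay in Ddx60, Csmd3 and Dach1. Ddx60 is a helicase gene of the antiviral response, and its region at chr8:62015104-62015644 had folds of 5.86 in D1 SS and 4.62, 5.29 and 4.52 in D2 SS, D2 SC and D2 CC. Csmd3, a very long gene of a membrane protein, had 4.89 in D1 SS and only 2.94, 3.28 and 2.97 in the D2 lists (chr15:48161360-48161612), below percentile 10 in all 3. It is a region with a higher rank in D1 SS, percentile 59.8, than in any D2 list. Dach1, a transcriptional cofactor gene, had 4.88, 5.46, 6.01 and 5.64 (chr14:97979283-97979514), a middle to upper rank in each list.

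Of the 10 regions within 1 kb of an annotated TSS, 3 belonged to Crb1, the gene of a polarity protein known from the retina. The region at chr1:139255842-139256055, 186 bp before the authors' TSS and 88.3 kb from the nearest RefSeq TSS, had a fold of 3.91 in D1 SS but 7.98, 10.1 and 8 in D2 SS, D2 SC and D2 CC. Those are percentile 27.3 in D1 SS and 92.7, 98.0 and 93.2 in the D2 lists, so its D2 peaks were among the strongest of the set. A D1 CC peak lay 97 bp from it. The other Crb1 regions, at chr1:139328666-139328945 and chr1:139329052-139329272, lay inside 1 peak of 623 bp in D2 SS, with folds of 4.10 and 4.25 in D1 SS and 6.70, 6.84 and 6.55 in the D2 lists, and had no peak of the 4 lists within 3.5 kb. The nearest RefSeq TSS lay 48.3 and 47.9 kb from them. They are 1 site in the D2 lists, not independent regions.

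Single regions lay within 1 kb of a TSS of Grik2, a kainate-type glutamate receptor subunit (at -711 bp, chr10:49104527-49104758), and of Etv1 (at 693 bp, chr12:38781695-38781949). The annotated Grik2 transcript is 2.80 kb long, and the nearest RefSeq TSS lay 684 kb from the region. Grik2 had folds of 3.35 in D1 SS and 4.62, 4.20 and 4.40 in D2 SS, D2 SC and D2 CC. Etv1 had 4.14 in D1 SS and 2.59, 3.25 and 3.53, so it stood higher in D1 SS, at percentile 36.9, than in the D2 lists, at 1.44, 7.92 and 24.8. The remaining 5 belonged to the predicted genes Gm12438, Gm42675, Gm11168, Gm10717 and Gm10715. The last 3 lie side by side at the start of the assembled chromosome 9, where D1 SS had 15 peaks in the first 200 kb. Their folds were low in D1 SS, at 2.36, 3.07 and 3.47, yet their q-values were 2.34e-08, 4.83e-19 and 8.09e-18, far below the median q of the set, 1.37e-05. Whether reads were divided between similar copies of these genes was not tested, and these 3 are uncertain. Peaks of the 4 lists that lack the regions lay 845, 162 and 1581 bp from them.

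A gene name was attached to 167 regions, in 146 genes, 1.19% of the 12274 genes with a D1 SS peak. Of these genes 125 had another peak in D1 CC, 114 in D1 CS, 108 in D1 SC and 110 in D2 CS, and 19 had none in any of the 4 lists. The same counts over all genes with a D1 SS peak were not made, and the absence of the site itself follows from the rule. More than 1 region was found in 14 genes, led by Cntn4 with 7 and by Crb1 and Magi2 with 3 each. The 2 regions of Mpp7 had the same fold (4.76, 5.29 and 6.13) and the same width in D2 SS, D2 SC and D2 CC, as a single D2 site would give. Zinc finger genes named Zfp held none of the 393 regions, 312 of all D1 SS peaks (1.09%) and 6 of the 320 peaks of the opposite pattern (1.88%).

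Cntn4, a contactin gene of neuronal adhesion on chromosome 6, held 21 D1 SS peaks, and 7 of them (33.3%) belonged to the set. All 21 had a peak in D2 SS, D2 SC and D2 CC, while 14 had one in D1 CC, 8 in D1 CS, 7 in D1 SC and 7 in D2 CS. Over the gene as a whole the lists held 47, 48 and 49 peaks in D2 SS, D2 SC and D2 CC, against 24 in D1 CC, 11 in D1 CS, 10 in D2 CS and 8 in D1 SC. The strongest of the 7, at chr6:105827505-105827840, had folds of 4.69 in D1 SS and 5.43, 7.88 and 6.28 in D2 SS, D2 SC and D2 CC, and no peak of the 4 lists within 19.3 kb. The next, at chr6:106053697-106054235, had folds of 4.49, 5.74, 5.11 and 5.11. The other 5 had D1 SS folds of 3.32 to 4.18 and lay between 5990 and 31643 bp from the nearest peak of the 4 lists. Without Cntn4, 5 of 225 D1 SS peaks in synaptic adhesion genes belonged to the set (2.22%), and with it 12 of 246 (4.88%). The share was 1.38% for all D1 SS peaks, 0.806% for those with a gene name and 1.69% for those in gene bodies.

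Other adhesion and guidance genes held 1 or 2 regions each. Cntnap2, a neurexin-related adhesion gene, had 2, with folds of 4.30 and 3.32 in D1 SS. Ptprd, a synaptic receptor phosphatase, had 2, with folds of 4.10 and 4 in D1 SS and 3.36 and 3.57 in D2 SS, and so did the protocadherin gene Pcdh9, with 4.32 and 3.71 in D1 SS and 6.16 and 5.66 in D2 SS. A contactin, Cntn5, had 1 with folds of 3.12 in D1 SS and 2.80, 3.47 and 5.55 in D2 SS, D2 SC and D2 CC, at percentiles 3.56, 4.19, 13.5 and 70.3. The guidance ligand gene Sema3a and the netrin receptor gene Unc5c had 1 each, with D1 SS folds of 3.69 and 4.30. Lengths of the annotated transcripts with these regions ran from 203 kb for Sema3a to 1618 kb for Ptprd.

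Among genes of excitability and signalling, regions lay in the potassium channel gene Kcnb2 (fold 3.91 in D1 SS), the channel-interacting protein gene Kcnip4 (3.71), the sodium channel gene Scn2a (3.52), the metabotropic glutamate receptor gene Grm8 (3.86) and the cAMP phosphodiesterase gene Pde4d (3.71). Kcnn2, a calcium-activated potassium channel gene, had 2 (3.65 and 3.32). In D2 SS, D2 SC and D2 CC the Scn2a region had folds of 5.17, 4.35 and 4.75 and the Grm8 region 5.02, 5.18 and 4.88, at percentiles of 38.6 to 64.8 in the D2 lists. The Kcnb2 region had 3.27, 4.17 and 4.09, the Kcnip4 region 3.64, 5.29 and 5.25, and the Pde4d region 3.36, 3.47 and 4.82. In D2 SS these 3 stood at percentiles 16.7, 28.8 and 19.5, lower than Scn2a and Grm8. For 3 of 20 ion channel genes, 2 of 18 glutamate receptor genes, 2 of 26 axon guidance genes, 1 of 20 cadherin and protocadherin genes and 1 of 20 cAMP signalling genes a region was found, and for none of 11 GABA-A receptor genes. Counted by peaks, these lists gave 3 of 150 (2%), 2 of 103 (1.94%), 2 of 121 (1.65%), 2 of 90 (2.22%) and 1 of 100 (1%). GABA-A receptor genes gave 0 of 33. These counts take all D1 SS peaks named for the genes, promoter peaks included. Of all 20714 D1 SS peaks with a gene name 0.806% belonged to the set, and of gene body peaks 1.69%. The shares of 1 to 2.22% lie above the first value and around the second. All gene lists together gave 22 of 1009 (2.18%), with 7 of the 22 in Cntn4. Region class was not matched.

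Genes with 2 or 3 regions outside these lists included Magi2, a synaptic scaffold gene, with D1 SS folds of 3.88, 3.72 and 3.32, and Nrg1, which encodes the ligand neuregulin 1, with 3.52 and 3.32. St18, a zinc finger transcription factor gene, had 3.71 and 3.52, and its gene body region reached 6.16, 6.95 and 6.57 in D2 SS, D2 SC and D2 CC. Magi2 carried 69 peaks in D1 CC, more than in any D2 list (51 to 62), so the absence of its 3 regions from D1 CC did not go with fewer peaks in the gene there. Gm34933, a predicted gene on chromosome 6, had 2 regions and no other D1 SS peak, 3 peaks in each of the 3 D2 lists and none in the 4 lists that lack the regions. Its region at chr6:107231028-107231258 had a fold of 2.93 in D1 SS, at percentile 1.31, against 6.02, 6.93 and 7.70 in the D2 lists, where it was above percentile 76. The other, at chr6:107243237-107243458, had 3.52 in D1 SS and 6.58, 6.20 and 5.46.

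By the authors' gene names, no region lay at a listed marker gene of MSNs or of another cell type of the tissue. The 226 intergenic regions carry no gene name, so they could not count here. An intergenic region among the 25 strongest, at chr1:14126583-14126867 with a D1 SS fold of 5.24, lay 42.1 kb from Eya1, a listed D1 MSN marker. None of 10 D1 MSN, 10 D2 MSN and 15 pan-MSN markers held one, nor did any of 16 rapid immediate-early genes, 15 delayed activity-regulated genes and 61 markers of astrocytes, oligodendrocyte lineage, microglia, vessels, interneurons and cortical neurons. D1 SS had peaks in 9 of the D1 MSN and 2 of the D2 MSN markers, whereas D2 SS, D2 SC and D2 CC each had peaks in 9 of the D2 MSN and in 8 or 9 of the D1 MSN markers, so peaks at D1 markers did not separate the labelled types. The other D1 lists had peaks in 8 or 9 of the D2 MSN markers. Peaks were present at 15 of the 61 other-cell markers for D1 SS, 31 for D2 SS, 22 for D2 SC and 28 for D2 CC, and at 19 for D2 CS, 16 for D1 SC, 34 for D1 CS and 41 for D1 CC. The 11 lists together held 166 D1 SS peaks, and the overall share of 1.38% would give 2.28 regions there, so a count of 0 is near the background. Among D1 SS peaks with a gene name the share was lower, at 0.806%. The counts of markers with a peak overlap between lists that hold and lists that lack the regions.

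The share of D1 SS peaks in the set differed between chromosomes, with no adjustment for region class or for the number of chromosomes. Promoter peaks rarely belonged to the set (0.0909%, against 2.88% of intergenic peaks), and the mix of classes on each chromosome was not taken into account. Chromosome 3 had 50 (2.47% of its D1 SS peaks, 1.84 to 3.24%) and chromosome 6 had 35 (2.03%, 1.42 to 2.82%). At the low end, chromosome 17 had 3 (0.353%, 0.0728 to 1.03%) and chromosome 11 had 10 (0.610%, 0.293 to 1.12%). The intervals of these 4 chromosomes exclude the overall share, and those of chromosome 5, with 34 regions (1.98%, 1.38 to 2.76%), and chromosome 1, with 44 (1.88%, 1.37 to 2.52%), reach down to about that share. The opposite pattern went another way, with 40 of 320 peaks (12.5%) on chromosome 17 and 22 (6.88%) on chromosome 19, and 13 (4.06%) on chromosome 3. These are shares of the 320. Of all 77070 D1 CC peaks, 2662 lay on chromosome 17, 1668 on chromosome 19 and 4853 on chromosome 3. Neighbouring regions were a median of 2.39 Mb apart. Of 373 neighbouring pairs, 15 lay within 100 kb and 114 within 1 Mb. No reference spacing was computed, so clustering of the regions was not tested.

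**Figure D4:**
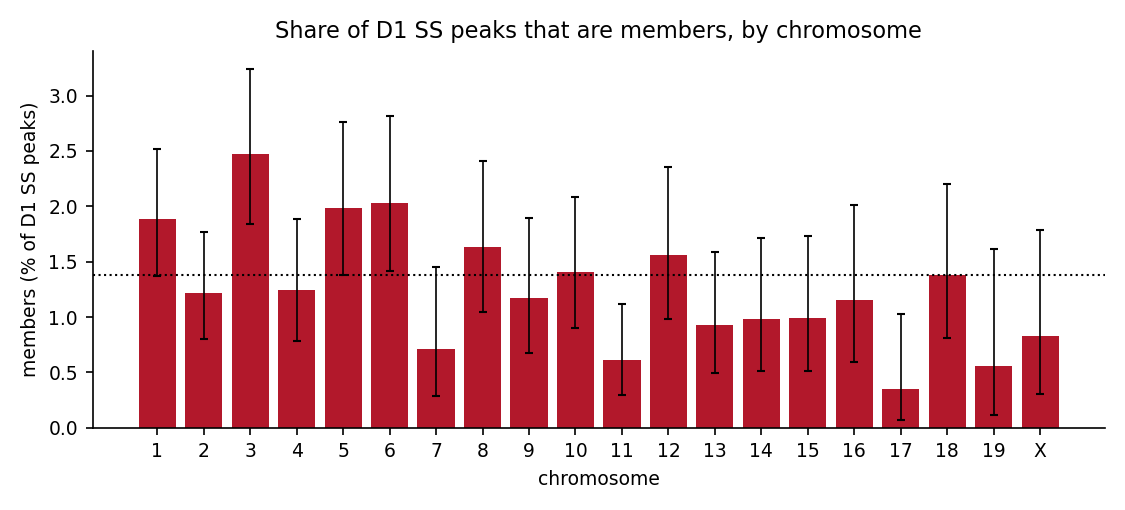
Bars give the share of D1 SS peaks on each chromosome that belong to the set (members, %), with exact 95% binomial intervals, and the dotted line marks the overall share of 1.38%. Chromosome 3 is the highest at 2.47% and chromosome 17 the lowest at 0.353%.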

How the data were processed

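ATAC-seq peak lists, 1 for each of 8 groups with 26 libraries in all, were used. Per the submitters' processing notes, which give no version and no role, the tools were MACS2, SAMtools, HISAT and cutadapt, on mm10. Pooling of a group's libraries ahead of peak calling is not given in the sources used here. The authors deposited a fold (ratio over background) for each peak, unscaled across lists. The q-value of each peak was also deposited by the authors. Positions, classes and distances are theirs. The lists hold 0 columns of single libraries, so no test between groups was possible.

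Presence meant an overlap of at least 1 bp. Gene positions and promoter windows came from RefSeq tables on GRCm38.p6, which gave a symbol for 121 of the 146 genes and no promoter window on chromosome 18. Named regions are the 25 with the highest D1 SS fold (1 per gene, intergenic peaks each on their own), those within 1 kb of a TSS, those in 18 gene lists (267 genes), those in genes with 2 or more, and the widest, narrowest, nearest and farthest. The set and the lists were chosen with earlier results of these data known. On simulated lists, 200 of 200 planted regions were recovered among 28568 peaks. Alternatives were other overlaps, stricter q-values, equal list length, other anchors and leaving out each list. The scripts ran on Python 3.11.15 with scipy 1.17.1, pandas 2.3.3, numpy 2.4.6, and matplotlib 3.10.9 for plots.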

Additional observations from a re-analysis of the deposited data

How the results depend on the processing

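No paired analysis was possible because the files hold 1 list per group and no column per library, and for the same reason no library could be left out. The number of regions, 393, was 137 with a reciprocal overlap of 50%, 151 with a q of at most 1e-05 in the 4 lists that hold the peak, 678 when absence was judged against peaks with a q of at most 1e-05, 1280 with lists of equal length (27898 peaks) and 2671 without D1 CC in the rule. Leaving out any other list gave 396 to 442. Excluding peaks within 1 kb gave 323, and leaving out the start of chromosome 9, chosen after seeing the data, 390. The gene body share was 29.2% with the reciprocal overlap and 29.1% with the stricter q. The promoter share was 6.11% with a limit of 2.5 kb. The median width was 399 bp with the reciprocal overlap, 275 bp with absence judged at the stricter q, 421.5 bp at equal length, 307 bp without D1 CC, and 519, 520 and 560.5 bp anchored on D2 SS, D2 SC and D2 CC peaks. The median percentile of fold was 41.6 with the stricter q and at equal length, and 50.2, 45.3 and 56.9 with the 3 D2 anchors. The median distance to the annotated TSS was 30907.5 bp with the stricter q. The remaining values stayed within 1.5 times the count or within the interval of the value reported. D2 anchors rank and measure other peaks by construction. Leaving out a list, or judging absence against fewer peaks, can only add regions. Stricter overlap or q for presence, or a wider gap for absence, can only remove them. With the stricter q for presence, D1 SS peaks of higher q drop out while the percentile is still taken over the full list. For the other shifts the cause was not tested. The part of depth was not tested.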
